A study of Mus musculus with 26 samples.

Results

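The regions described here were the 40-kb bins of the mouse genome that overlap an olfactory or vomeronasal receptor gene, together with their replication states in single blastomeres of 8-cell embryos. Members were all bins overlapping a gene of the GENCODE vM21 annotation (mm10) whose symbol starts with Olfr, Vmn1r or Vmn2r. They numbered 1002 of the 51976 bins in the table, with 671 Olfr bins, 115 Vmn1r bins and 220 Vmn2r bins, and 4 bins counted in 2 families. The other 50974 bins of the same 17 chromosomes were the comparison. The embryos were made by in vitro fertilization from C57BL/6 oocytes and sperm, were neither treated nor genetically altered, and were dissociated by hand. DNA and RNA of the same blastomere were read by scRR-seq, in which carboxylic acid beads hold the chromatin while the RNA stays in the supernatant. The study used 2 versions of the protocol on 8-cell embryos, scRR1 and scRR3, and the labels do not say which cell had which. From embryos, scRR1 detected fewer transcripts and was biased to the 3′ end. The RNA values below were not split by protocol. Replication states were given for 3 cells of embryo 1 (cells 1, 6 and 7), which the study placed outside S phase, and for 6 cells of embryo 2 (cells 2, 3, 5, 6, 7 and 8), which were in S phase. All S-phase cells came from 1 embryo, which is 1 biological replicate, so the spread between cells is given as SD and no p-value was computed.

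Olfactory receptors (Olfr) are G protein-coupled receptors of the olfactory sensory neurons, and each mature neuron expresses 1 of them from 1 allele. Vmn1r and Vmn2r genes encode the receptors of the vomeronasal organ, which detects pheromones and other social signals, and Vmn2r receptors carry a long extracellular domain. The genes lie in large tandem arrays, are AT-rich and are mostly silent outside the olfactory system, and in many cultured cell types such arrays are known for late replication. In a cell that has copied most of its genome, an unreplicated bin is one still waiting to be copied, and a bin replicated in every such cell was copied before that point.

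To show what kind of sequence these arrays hold, promoters are given for 1 Olfr and 1 Vmn2r gene from the highest and the lowest array of each family. No Vmn1r pair is shown, since the gene chosen in the highest Vmn1r array overlapped no bin with a state. Each runs from 250 bases before to 50 bases after the RefSeq gene start (GRCm38.p6, the build of the files), 5′ to 3′ on the strand of the gene. In each gene shown, this start lies inside the gene as GENCODE gives it. For Vmn2r60 and Olfr433 the GENCODE genes begin at chr7:42107770 and chr1:174040705, before the printed windows. The windows therefore need not hold the start of transcription, and whether those of other genes do was not tested. Capitals mark TAATTA and also TATAAA or CCCNNGGG on either strand, of which TATAAA may overlap its own reverse complement. Olfr119 (chr17:37696435-37696734, plus strand) and Vmn2r60 (chr7:42116221-42116520, plus strand) were replicated in 6 of 6 cells, Olfr433 (chr1:174041683-174041982, plus strand) in 1 of the 5 cells with a state, and Vmn2r74 (chr7:85961433-85961732, minus strand) in 0 of 6.
Olfr119: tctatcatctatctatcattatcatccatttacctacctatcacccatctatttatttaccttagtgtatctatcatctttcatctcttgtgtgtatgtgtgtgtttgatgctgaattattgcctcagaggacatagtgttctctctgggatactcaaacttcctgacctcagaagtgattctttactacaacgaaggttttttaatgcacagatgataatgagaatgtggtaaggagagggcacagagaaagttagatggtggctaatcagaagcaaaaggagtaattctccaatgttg
Olfr433: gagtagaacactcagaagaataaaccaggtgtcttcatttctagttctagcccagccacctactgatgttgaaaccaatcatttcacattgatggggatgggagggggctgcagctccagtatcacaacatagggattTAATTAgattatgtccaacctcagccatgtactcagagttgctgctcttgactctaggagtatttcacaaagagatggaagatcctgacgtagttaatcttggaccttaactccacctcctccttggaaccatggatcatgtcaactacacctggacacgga
Vmn2r60: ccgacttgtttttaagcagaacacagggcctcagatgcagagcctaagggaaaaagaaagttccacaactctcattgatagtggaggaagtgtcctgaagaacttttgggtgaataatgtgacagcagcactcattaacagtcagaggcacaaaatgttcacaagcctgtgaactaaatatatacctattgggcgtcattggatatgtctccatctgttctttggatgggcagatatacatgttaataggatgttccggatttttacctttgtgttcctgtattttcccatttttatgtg
Vmn2r74: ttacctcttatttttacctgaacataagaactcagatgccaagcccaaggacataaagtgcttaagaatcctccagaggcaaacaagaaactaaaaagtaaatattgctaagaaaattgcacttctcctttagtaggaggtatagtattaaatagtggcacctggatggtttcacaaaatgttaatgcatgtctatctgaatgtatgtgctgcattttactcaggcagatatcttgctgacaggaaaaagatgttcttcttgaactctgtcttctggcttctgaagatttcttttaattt
The 4 sequences held a single motif, a TAATTA in Olfr433, the kind of site bound by homeodomain factors such as Lhx2. Among all 27025 promoters in the reference table, 5.40% held TAATTA, 14.1% held TATAAA and 13.5% held CCCNNGGG, the core of sites bound by Ebf factors. Among 944 Olfr promoters the shares were 18.4%, 41.0% and 3.07%. Vmn1r promoters (206) held them in 7.28%, 42.2% and 0.485%, and Vmn2r promoters (117) in 17.1%, 23.1% and 19.7%. The median GC content of these 300-base windows was 35% in Olfr, 36% in Vmn1r and 38% in Vmn2r promoters, against 52.7% in all promoters.

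Not every receptor gene could be followed. The annotation held 1972 receptor genes, of which 1407 were Olfr, 327 Vmn1r and 238 Vmn2r, and 1466 were protein-coding. Chromosomes 6, 10, X and Y, with 227 of the genes, had no bins and were not analysed here. Of the other 1745 genes, 1623 overlapped at least 1 bin and 122 did not, 67 of them Vmn1r and 43 Vmn2r. Receptor genes covered 1119 bin positions on these chromosomes and 10.5% of the positions were absent from the table, against 1.92% of the non-receptor positions. The absent share was 1.9% for Olfr, 19.7% for Vmn2r and 30.3% for Vmn1r. The values below describe only the bins present in the table. Why a position is absent was not tested, nor was its part in the results.

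In the S-phase cells, receptor bins were replicated about as often as the rest of the genome. The percent of receptor bins replicated was 84% in cell 2, 73.8% in cell 3, 75.7% in cell 5, 69.9% in cell 6, 80% in cell 7 and 87.3% in cell 8. Over all bins with a state, the percent replicated in the same cells was 77.8%, 74.2%, 76.9%, 62.4%, 80.5% and 78.7%. Receptor bins lay above the other bins in cells 2, 6 and 8 and slightly below them in cells 3, 5 and 7. The mean was 78.4% ± 6.52 (SD, n = 6 cells) in receptor bins and 75.0% ± 6.60 in other bins, a difference within the cell of 3.42 ± 4.65 percentage points that is smaller than its spread between cells. It was 2.95 points in the 2 cells with label numbers from 11 to 17 and 3.66 points in the 4 cells numbered from 20 to 25. Exact 95% binomial intervals of these shares had half-widths of 2.12 to 2.90 points and cover counting error only, since neighbouring bins share a state.

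The 3 families stood at different levels. Vmn1r bins were replicated more often than the other bins of their chromosomes in each of the 6 cells. Their percent replicated was 94.8%, 98.3%, 90.4%, 89.6%, 97.4% and 94.7% in cells 2, 3, 5, 6, 7 and 8, with no overlap with the 64.7% to 80.6% of the other bins. The mean difference was 17.5 ± 4.30 percentage points (SD, n = 6 cells). Olfr bins were at 83.6%, 70.3%, 73.6%, 69.2%, 79.7% and 89.6%. This exceeded the other bins by 2.54 ± 6.11 points, with 3 cells above and 3 below, and by 0.89 points without cell 8. Without chromosome 2, which holds the largest array, Olfr bins exceeded the other bins by 5.98 ± 5.04 points and all receptor bins by 5.74 ± 4.02 points, each higher in 6 of 6 cells. Vmn2r bins were at 79.1%, 71.8%, 74.1%, 61.9%, 71% and 76% and differed from the other bins by -2.66 ± 3.6 points, higher in 2 of 6 cells, and by -1.45 points without cell 7. The Vmn2r value depended on chromosome 7: without it, Vmn2r bins exceeded the other bins by 10.8 ± 3.96 points, in 6 of 6 cells. Bins holding only receptor pseudogenes (134 bins, 76.8% ± 6.80) and bins with a protein-coding receptor gene (868 bins, 78.7% ± 6.66) differed by less than the SD between cells.

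**Figure D1:**
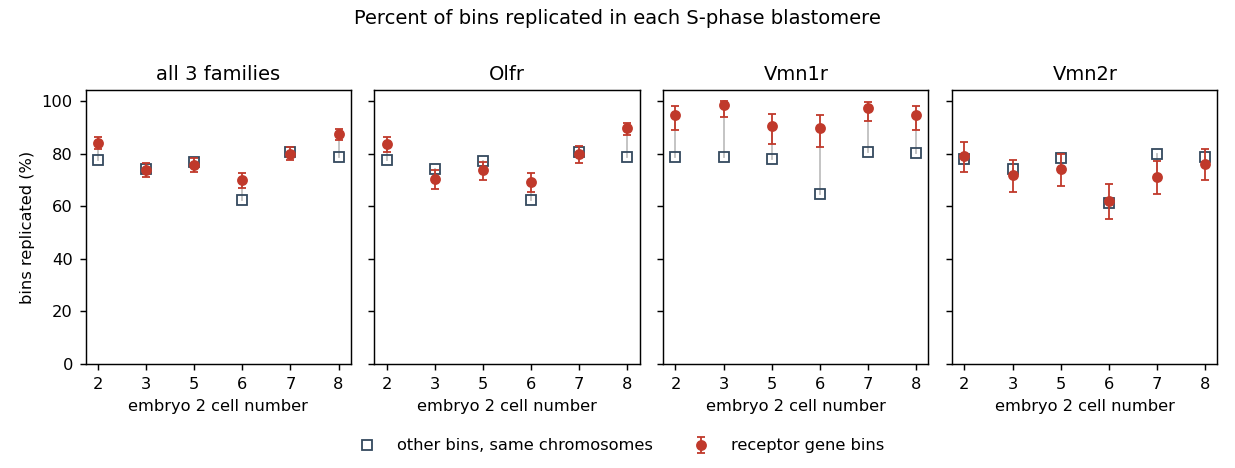
Percent of bins replicated (vertical axis) in each of the 6 embryo 2 cells (horizontal axis), for receptor gene bins (red circles, with exact 95% binomial intervals) and the other bins of the same chromosomes (open squares). Vmn1r bins lie above the other bins in all 6 cells, while Olfr and Vmn2r bins lie on either side of them.

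Counted over cells, every cell had replicated 509 of the 976 receptor bins for which 6 states were given (52.2%, against 48.7% of all bins). Another 54 receptor bins were replicated in no cell (5.53%, against 8.03% of all bins). The share replicated in all 6 cells was 81.4% of Vmn1r bins, 49.5% of Olfr bins and 44% of Vmn2r bins. The share replicated in none was 1.77%, 4.26% and 12%. The 54 bins lay in 4 arrays only: 30 in an Olfr and Vmn2r array of chromosome 7, 14 in an Olfr array of chromosome 9, 8 in a mixed array of proximal chromosome 7 and 2 in an Olfr array of chromosome 1. Without chromosome 7, 2.30% of receptor bins were replicated in no cell. Receptor bins made up 1.34% of the 4027 bins replicated in no cell and 1.95% of all bins with a state in all 6 cells.

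**Figure D2:**
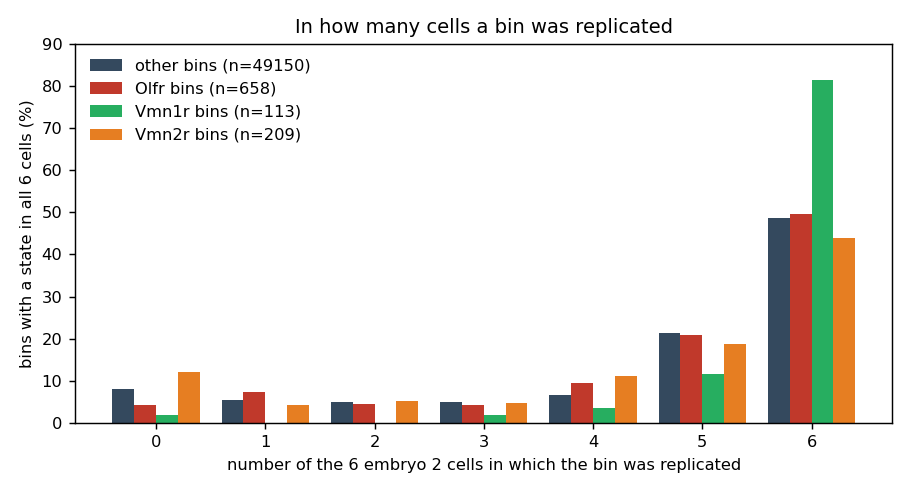
Share of bins (vertical axis, percent of bins with a state in all 6 cells) by the number of embryo 2 cells in which the bin was replicated (horizontal axis), for other bins and for each receptor family. Most Vmn1r bins (81.4%) stand at 6 cells, and Vmn2r bins have the highest share at 0 cells (12%).

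To see whether base composition goes with these values, GC content was computed for each bin from the genome sequence. Receptor bins were AT-rich, with a median GC content of 38.6% against 41.5% in other bins, and rich in soft-masked repeats, with a median of 48.1% against 30.5%. Among other bins, the mean percent replicated was 93.2% at 44 to 46% GC, 61.4% at 38 to 40% and 27.7% at 34 to 36%. Receptor bins with a GC content of 36 to 38% (292 bins) were replicated in 65.1% ± 8.77 of cases, against 37.5% ± 4.82 of the 7206 other bins of that GC content. The difference was 27.6 ± 6.85 percentage points (SD, n = 6 cells), higher in 6 of 6 cells. At 34 to 36% GC it was 22.3 ± 13.8 points (84 receptor bins), and at 38 to 40% GC 24 ± 4.42 points (374 bins), each again higher in 6 of 6 cells. At 40 to 42% and 42 to 44% GC it was 9.10 ± 3.47 and 7.78 ± 8.72 points, higher in 6 of 6 cells, and at 44 to 46% GC 1.29 ± 8.85 points, higher in 4 of 6. Within the families, Olfr, Vmn1r and Vmn2r bins of 36 to 40% GC exceeded the other bins of that GC content by 23.4 ± 6.53, 38.2 ± 3.38 and 25.5 ± 5.32 points, each in 6 of 6 cells. The order turned for Vmn2r bins of 40 to 42% GC (24 bins), which differed from the other bins by -11.3 ± 11.6 points, higher in 1 of 6 cells. Receptor bins of 50 to 60% repeat content (281 bins) likewise exceeded other bins of that repeat content, by 17.5 ± 3.24 points in 6 of 6 cells. At 20 to 40% repeats (263 bins) the difference was 2.71 ± 5.72 points, higher in 4 of 6 cells and within its spread, and in the 4 bands from 40 to 90% repeats it was 11.4 to 19.9 points, higher in 6 of 6 cells.

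At equal GC content, receptor bins came closest to bins that held transcribed genes. Other bins of 36 to 38% GC with a gene at TPM > 1 in any of the 9 cells (1022 bins; TPM is the share of a transcript in the RNA of a cell) were 67.6% ± 6.68 replicated, against 65.1% in receptor bins, a difference of -2.49 ± 7.73 points. Other bins of the same GC content without such a gene (6184 bins) were at 32.5% ± 4.64. Few receptor bins held a transcribed neighbour: 12.5% overlapped a non-receptor gene at TPM > 1, against 41.6% of other bins that overlapped one. The 247 receptor bins of 36 to 38% GC with no gene at TPM > 1 were still 65% ± 8.46 replicated, 32.5 ± 6.53 points above other bins without a transcribed gene, in 6 of 6 cells. Other bins of this GC content with a protein-coding gene but no gene at TPM > 1 (1212 bins) were at 39.7% ± 5.59.

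**Figure D3:**
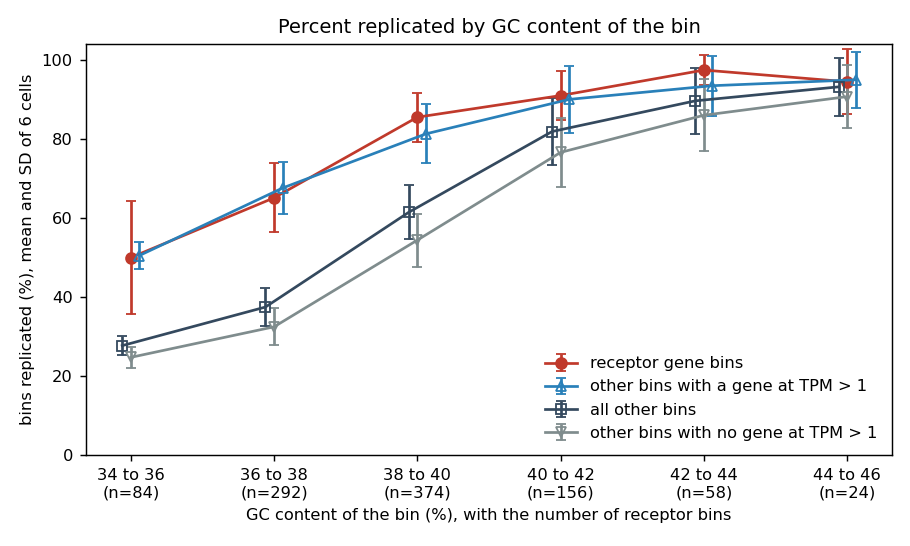
Percent of bins replicated (vertical axis, mean and SD of the 6 embryo 2 cells) by GC content of the bin (horizontal axis, 2-point bands, with the number of receptor bins). From 34 to 40% GC, receptor bins (red) lie near other bins with a gene at TPM > 1 (blue) and above all other bins (dark) and other bins without such a gene (grey).

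Set against the genomic neighbourhood, the pooled receptor bins were lower. Against the 6519 other bins within 2 Mb of an array, which were 88.4% ± 6.46 replicated, receptor bins were replicated less often in each of the 6 cells, with a difference of -9.94 ± 4.5 percentage points. By family, the neighbours were the other bins of its chromosomes within 2 Mb of an array of any family. The difference was -10.7 ± 6.03 points for Olfr (6468 neighbours) and -15.9 ± 3.35 points for Vmn2r bins (3737). Both were lower in 6 of 6 cells. Vmn1r bins were 6.57 ± 4.6 points above theirs (3100), in 6 of 6. Set against the flanks of their own array, Vmn1r bins showed no single order. They were lower on proximal chromosome 7 (91.1% against 100%) and chromosome 17 (96.7% against 99.4%). They were higher on chromosome 13 (95.6% against 92.3%) and in the other large array of chromosome 7 (100% against 93.6%). The 6519 neighbours were richer in GC, and the median GC content of receptor bins minus theirs was -4.41 points. The arrays did not share 1 order: of the 32 arrays with at least 5 bins, which are defined below, 14 had a mean above that of their own flanks, 16 below and 2 equal to it, and 8 were below in at least 5 of 6 cells. Without the 5 arrays of lowest mean, the remaining 737 receptor bins differed from the neighbours by 2.22 ± 3.47 points, higher in 5 of 6 cells, a value that the choice of those arrays moved upward.

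Other clustered gene families and long genes were measured in the same way. Bins of Zfp genes, which encode zinc-finger proteins, were at 94.4% ± 4.50, and bins of Cyp2 genes, which encode cytochrome P450 enzymes, at 97.9% ± 1.33. Compared within 36 to 40% GC, Cyp2 bins (36) were 46.9 ± 5.33 and Zfp bins (86) 32 ± 4.37 points above other bins, against 25.4 ± 5.06 points for receptor bins (666). Genes of at least 500 kb showed the reverse: the difference of their bins from the other bins of their chromosomes was -13.2 ± 1.39 points, lower in 6 of 6 cells, and -5.06 ± 2.72 points within 36 to 40% GC, again lower in 6 of 6. Bins of Serpin protease inhibitor genes (3.87 ± 10.3 points), Krtap hair keratin-associated genes (-4.60 ± 22) and Mup urinary protein genes (1.3 ± 15.6) differed from other bins by less than the SD between cells, as did Serpin bins within 36 to 40% GC (14.7 ± 17.9 points, 23 bins). Defensin genes (Defa and Defb, 14.9 ± 8.84), Fpr formyl peptide receptor genes (12 ± 8.96) and Hist1 histone genes (16.2 ± 5.29) exceeded other bins in 6 of 6 cells, the last 2 over only 7 and 10 bins.

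The members were next grouped into arrays, joining receptor genes at most 1 Mb apart. This gave 76 arrays, of which 4 had no bin, 40 had 1 to 4 bins and 32 had at least 5 bins. The 68 bins of the small arrays were at 91.8% ± 6.18. Of the 32 larger arrays (934 bins, 1657 genes), 26 lay above the other bins of their own chromosome on the mean of the 6 cells and 6 below. Their means fell into a large high group and a small low group: 26 exceeded 80%, 5 were below 60% and 1 lay between, limits that were chosen after the values were seen. Of these, 8 arrays were wholly replicated in all 6 cells, with 127 bins and 245 genes. A skew to high values was not particular to the arrays: of all bins with 6 states, 48.7% were replicated in 6 cells and 21.3% in 5. Stretches of other bins of like length were not compared. Across the 32 arrays, Spearman's rho of the mean percent replicated was 0.53 with the median GC content, -0.25 with the span, 0.16 with the flanking bins and -0.02 with the repeat content, given as a description of arrays that share cells and chromosomes.

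The 5 arrays of at least 10 bins with the highest mean were replicated throughout in every cell. They were the Olfr array of chromosome 17 next to the major histocompatibility complex (chr17:37083871-38336643, 58 Olfr genes, 30 bins), an Olfr array of chromosome 2 (chr2:36285023-37332772, 37 genes, 25 bins), an array of Vmn2r genes among Zfp genes on chromosome 7 (chr7:41395945-42933822, 14 genes, 22 bins), a Vmn1r array of chromosome 7 (chr7:20099680-24063554, 78 genes) and a distal Olfr array of the same chromosome (chr7:140159999-140722112, 25 genes, 14 bins). The Vmn1r array rests on 15 bins, because 73.7% of its positions were absent from the table. Around the chromosome 17 array, the 96 bins within 2 Mb were 71.4% ± 6.38 replicated, below the array in 6 of 6 cells. The array did not stand out from the bins next to it, since the replicated state ran on past both its ends in every cell. The 25 bins just before it were replicated in all 6 cells. Of the 25 bins just after it, all were replicated in cells 2, 6 and 7, 13 in cell 3, 20 in cell 5 and 15 in cell 8.

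The lowest values came from 5 arrays with 265 bins and 513 genes, which are 26.4% of receptor bins. They held 56.2 to 76.9% of the unreplicated receptor bins of a cell. They were 44.6% ± 13.7 replicated and the remaining receptor bins 90.6% ± 4.98, values that the choice of the arrays fixed and that are given without a test.

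The lowest was an array of 26 Olfr genes on distal chromosome 1 (chr1:172950409-174451277, 14 bins). Its percent replicated was 28.6% in cell 2, 0% in cells 3, 5 and 6, 64.3% in cell 7 and 7.14% in cell 8, while the 96 bins within 2 Mb were at 80.7% ± 9.47. The interval also holds the interferon-inducible Ifi200 genes, among them Aim2, a sensor of cytosolic DNA. A stretch of 0.72 Mb (chr1:173200001-173920000), with 3 receptor genes, was unreplicated in all 6 cells. In cells 2, 3, 5 and 8 the unreplicated state ran on past the array, over 9 to 23 of the 25 bins in the 1 Mb after it. In cell 6, 13 of those bins were unreplicated, but most of them lay in a separate run. None was unreplicated in cell 7.

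The next was an array of 21 Olfr and 38 Vmn2r genes on chromosome 7 (chr7:84810387-87044941, 53 bins). It was replicated at 35.8% in cell 2, 39.6% in cell 3, 15.1% in cell 5, 9.43% in cell 6, 0% in cell 7 and 28.3% in cell 8. The 98 flanking bins varied widely, at 74.1% ± 33.8, and in cell 6 all 50 bins within 1 Mb on both sides were unreplicated. Its core of 1.28 Mb (chr7:85480001-86760000), from Vmn2r-ps70 to Olfr292 with 40 receptor genes, was unreplicated in all 6 cells. Vmn2r74, whose promoter is printed above, lies in this core.

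The large Olfr array of chromosome 9 (chr9:37708964-40190134, 123 genes, 62 bins) was at 70.5%, 26.2%, 48.4%, 27.4%, 40.3% and 45.2% in cells 2, 3, 5, 6, 7 and 8. The 98 flanking bins were at 97.4% ± 4.55. In each of the 6 cells the first and the last bin of the array were replicated and 1 unreplicated block lay between them, with a longest unreplicated run of 0.72 to 1.80 Mb. The blocks shared 0.56 Mb (chr9:38680001-39240000, 27 genes from Olfr919 to Olfr1537).

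The largest array, on chromosome 2 (chr2:85330779-90403897, 287 Olfr genes, 117 bins), was at 53.0%, 30.8%, 47.0%, 50.4%, 59.8% and 100% in the same cells. Cell 8 had replicated it throughout, while the other 5 cells shared an unreplicated stretch of 0.84 Mb (chr2:85920001-86760000, 64 genes from Olfr1025-ps1 to Olfr1090). Its state changed 4 to 10 times along the array in those 5 cells. Replicated and unreplicated receptor bins thus alternated within 1 array, between flanks that were 99.5% ± 1.3 replicated. The bin with the most receptor genes of all members, 7, lies in it (chr2:87800001-87840000, Olfr1143 to Olfr1149-ps1) and was replicated in 6 of 6 cells.

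The last was an array of 18 Vmn2r genes on chromosome 3 (chr3:64053031-64899762, 19 bins), with a mean of 58.4% ± 34.8. It was wholly replicated in cell 5, wholly unreplicated in cell 3 and mixed in the other 4 cells.

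**Figure D4:**
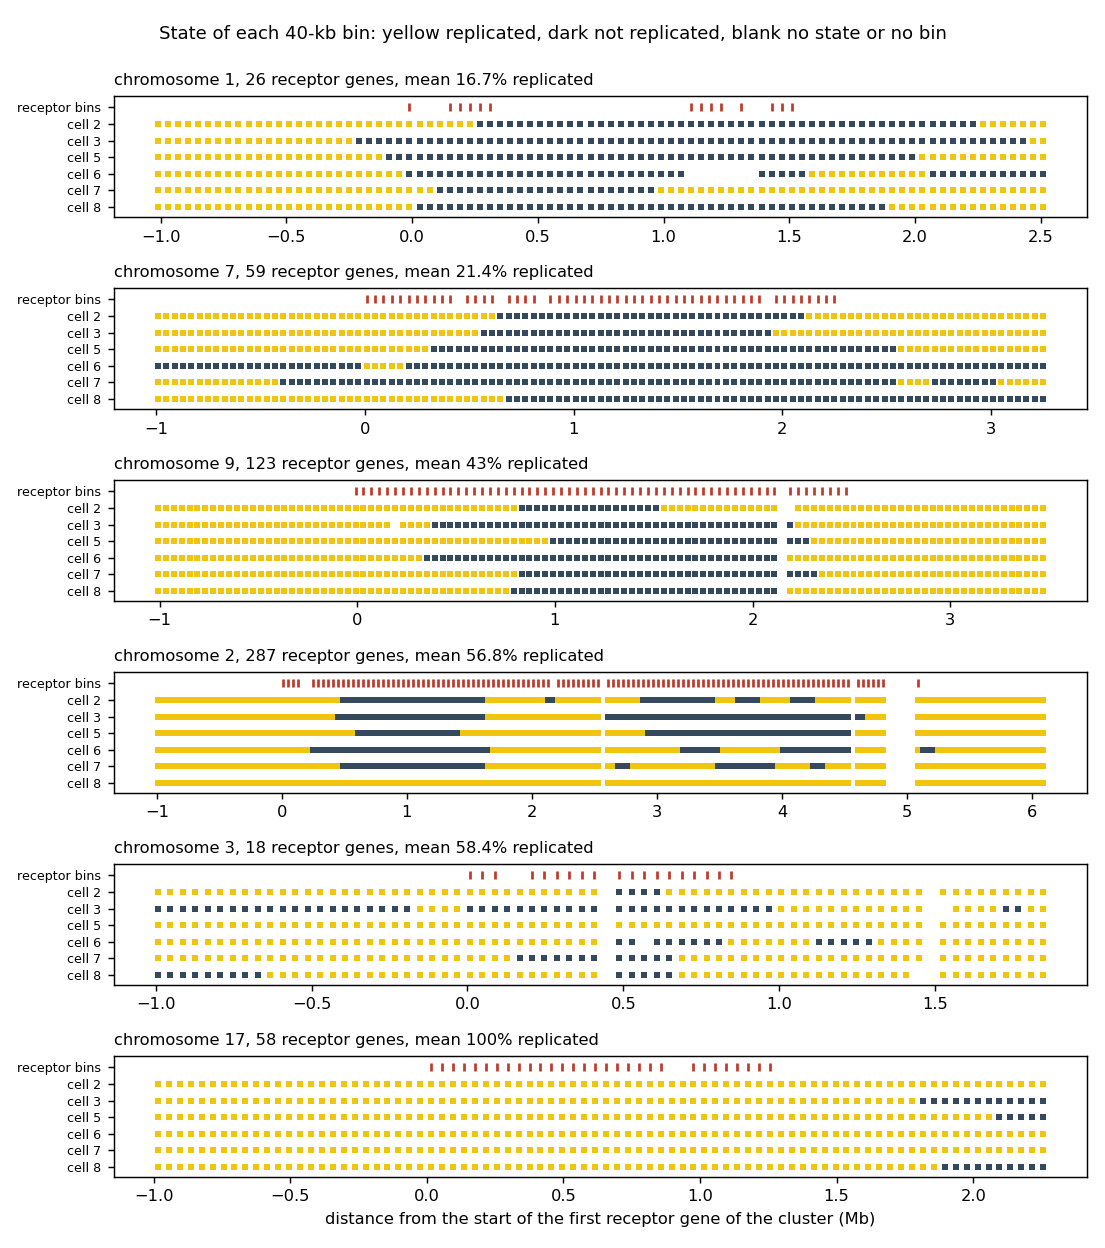
State of each 40-kb bin in the 6 embryo 2 cells (rows; yellow replicated, dark unreplicated, blank no state or no bin) by distance from the first receptor gene (horizontal axis, Mb), with receptor bins as red ticks, for the 5 arrays with the lowest means and the chromosome 17 array at 100%. In the chromosome 2 and 9 arrays the unreplicated stretches end before the flanks, whereas in the chromosome 1, 3 and 7 arrays they run into a flank in some cells, and no receptor bin of the chromosome 17 array is unreplicated.

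Position within an array went with the state. In arrays of at least 5 bins, bins within 0.1 Mb of an end were 90.9% ± 6.51 replicated (162 bins), and bins 0.5 to 1 Mb from the nearer end 68.6% ± 9.5 (215 bins). Beyond 1 Mb the value was 66.5% ± 9.66 (194 bins). In the 5 low arrays the value was 73.7% ± 9.55 within 0.1 Mb, 22% ± 19.4 at 0.5 to 1 Mb and 47.0% ± 19.1 beyond 1 Mb (93 bins), so it did not fall steadily towards the middle. Bins beyond 1 Mb come from the longest arrays alone. In the other arrays it was 94.2% ± 6.33, 92.1% ± 5.99 and 84.8% ± 7.68 at those distances. Bins with 1 receptor gene were 81.3% ± 5.20 replicated, bins with 2 76.9% ± 7.99, bins with 3 77.1% ± 8.51 and bins with 4 or more 70.3% ± 9.77. The difference within the cell between bins with 4 or more and bins with 1 was -11.1 ± 7.57 points, lower in 5 of 6 cells. The number of genes in a bin was not separated from the array it lies in.

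The other arrays singled out by size or content were mixed. The array of chromosome 7 that holds the globin genes (chr7:102476579-105369355, 156 Olfr genes of class I, the group shared with fish) was at 98.4%, 100%, 66.1%, 87.1%, 83.9% and 90.3%, with a mean of 87.6% ± 12.3. The array of proximal chromosome 7 with genes of all 3 families (chr7:5129291-13244362, 77 bins, with 31.25% of its positions absent) had a mean of 81.4% ± 5.20 inside flanks that were fully replicated. Within it the families parted: Vmn1r bins (45) were at 91.1% ± 5.05 and Vmn2r bins (28) at 62.4% ± 7.94, lower in each of the 6 cells. On chromosome 17, the array of 24 Vmn1r and 36 Vmn2r genes that also holds the Fpr genes (chr17:17703747-21323766, 68 bins) was at 87.7% ± 3.91, with 96.7% ± 8.16 in Vmn1r bins and 85.2% ± 4.97 in Vmn2r bins.

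**Figure D5:**
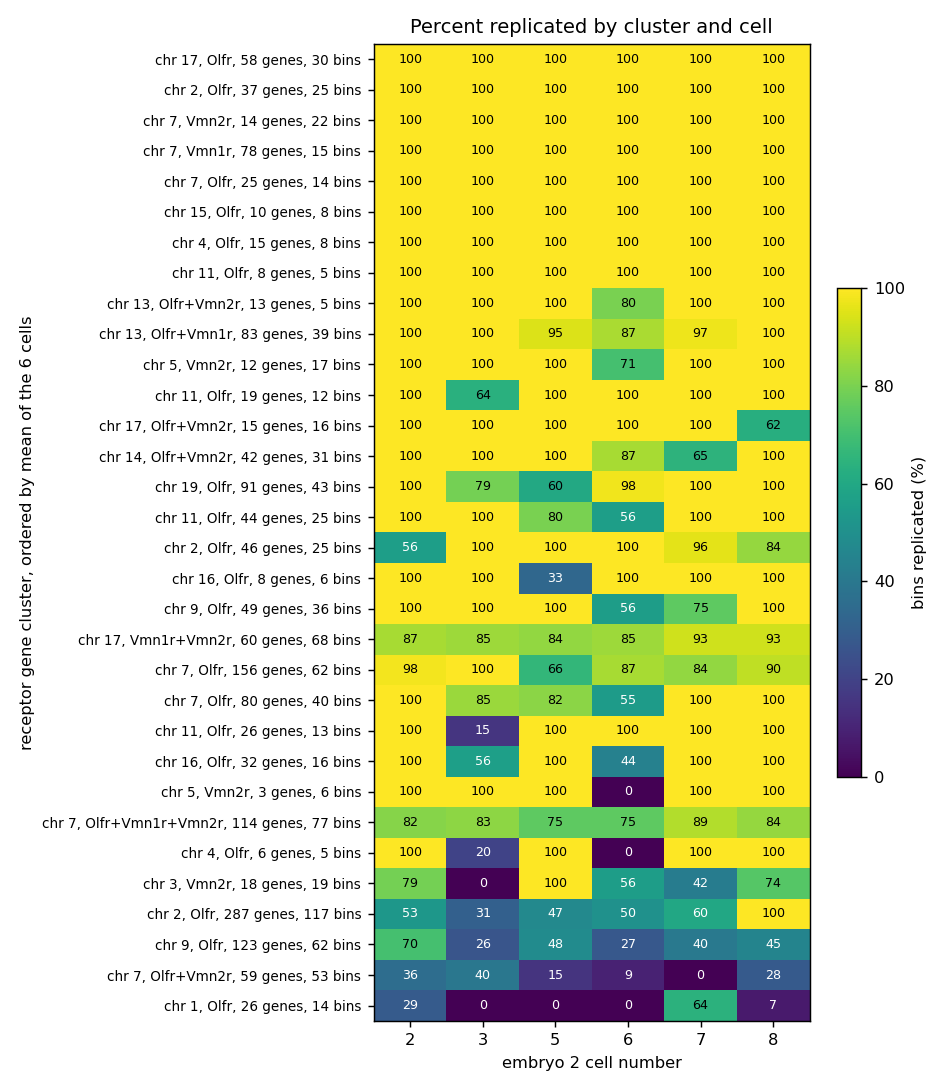
Percent of bins replicated (colour and number) in each of the 32 arrays with at least 5 bins (rows, ordered by mean) and each of the 6 embryo 2 cells (columns). The 8 arrays at the top are at 100 in every cell, and the 5 lowest rows are the only ones with a mean below 60.

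Cells of the embryo shared much of this pattern. Over receptor bins, 2 cells held the same state in 82.1% ± 2.98 of bins (15 pairs), against 66% if their profiles were independent. Other bins gave 81.9% ± 6.39, against 62.4%. In the 5 low arrays the agreement was 69.9% ± 4.95, against 49.9%.

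The cells of embryo 1, which the study placed in G1 or G2/M, were measured in the same way. The study used such cells to correct the mappability of the S-phase cells, so their low shares are no independent background. Receptor bins were called replicated at 11.5% in cell 1, 0.898% in cell 6 and 0% in cell 7, against 3.38%, 0.928% and 0.00393% of other bins. The value of cell 1 came from chromosome 7, on which 111 of 290 receptor bins (38.3%) and 43.7% of other bins were called replicated, from chr7:26040001 to chr7:142920000. Without chromosome 7, the shares in cell 1 were 0.562% and 0.826%. The study noted chromosomal abnormalities in cells of this embryo. The nature of the segment in cell 1 was not tested, nor was its part in the mappability correction, so its chromosome 7 gives no background level. In cell 1, 39.6% of the bins of the low chromosome 7 array (chr7:84810387-87044941) were called replicated.

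RNA of the same cells was examined to see whether the receptor genes were transcribed. The headers of the RNA table name embryo 1 cell 7 in every column, so the embryo and cell given for each RNA value rest on the library number at the end of the header alone. The blastomere identity of the libraries was checked first: 9 of 10 markers of 8-cell blastomeres, among them Dppa3 (1138 to 2169 TPM) and Pou5f1 (117 to 346 TPM), exceeded 1 TPM in all 9 cells, and their summed level was 2357 to 4230 TPM. Markers of sperm summed to at most 1.62 TPM. Of 7 cumulus and granulosa markers, Amhr2 (9.73 to 35.4 TPM) was above 1 TPM in 9 cells and Star in 1 cell, and Fshr, Has2, Inha and Tnfaip6 were listed at 0. Omp, Cnga2, Cnga4, Gng13 and Rtp1, which mature olfactory neurons use, were listed at 0 in all 9 cells. The 10 markers of olfactory neurons summed to 2.37 to 10.9 TPM, and 5 of them, among these Adcy3, Gnal and Ano2, exceeded 1 TPM in at least 1 cell. Of the 4 markers of vomeronasal neurons, Trpc2 and Gng8 were listed at 0 in all 9 cells, Gnao1 reached at most 0.83 TPM, and Gnai2, a G protein gene used by many cell types, was at 17.98 to 93.6 TPM, so that the list summed to 18.8 to 93.6 TPM.

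Of the 1972 receptor genes, 154 (7.81%) exceeded 1 TPM in at least 1 of the 9 cells, against 35.8% of all genes in the table. A cell had 37 to 64 of them, and 1489 were listed at 0 in all 9 cells. In all 9 cells alike, 10 genes exceeded 1 TPM. For the counts per cell, at 0 and in all 9 cells, the matching share over all genes was not computed. Detected receptor genes made up 7.46% of Olfr, 8.87% of Vmn1r and 8.4% of Vmn2r genes. Genes with a state in all 6 embryo 2 cells were also split by state. Of those replicated in every cell, 73 of 780 (9.36%) exceeded 1 TPM. The count was 46 of 694 (6.63%) for genes replicated in 1 to 5 cells and 2 of 75 (2.67%) for those replicated in none. The same split over all genes was not made. Other bins with a gene at TPM > 1 were 90.8% ± 6.90 replicated and other bins without one 63.7% ± 6.57. The RNA reads had been reduced to a common number per cell, but TPM values keep no read count per gene. No interval is therefore given for the shares of genes, and reads from near-identical receptor copies may have been divided among genes.

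Most of the receptor RNA came from 2 Olfr genes. Olfr1459 (chr19:13138021-13149549, minus strand) reached 795, 603 and 406 TPM in cells 1, 6 and 7 of embryo 1. In cells 2, 3, 5, 6, 7 and 8 of embryo 2 it stood at 480, 184, 697, 415, 432 and 641 TPM. The ranges of the 2 embryos overlapped. Olfr506 (chr7:108610787-108615340, plus strand) ranged from 188 to 280 TPM among embryo 1 cells and from 86.9 to 212 TPM among embryo 2 cells. Both genes were replicated in 5 of 6 embryo 2 cells, and neither overlaps another annotated gene. Summed receptor TPM was 483 to 1247 per cell with these 2 genes and 163 to 276 without them.

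The next 3 genes were far lower. Vmn2r97 (chr17:18914300-18958087) was at 18.9 to 48.6 TPM over the 9 cells, and was replicated in 3 of the 5 cells in which its state could be called. Olfr784 (chr10:129384083-129390198), on a chromosome without bins, was at 3.49 to 22.7 TPM. The pseudogene Olfr1372-ps1 (chr11:52154722-52168159) was at 3.87 to 23.2 TPM and overlaps the lincRNA gene Gm26551, with which its reads may be mixed.

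Genes of receptor choice and array silencing were mostly present. Of 18 listed genes, 12 exceeded 1 TPM in all 9 cells and 16 in at least 1, as did 35.8% of all genes in the latter case. The share of all genes above 1 TPM in all 9 cells was not computed. Cbx3, Cbx5 and Cbx1, the heterochromatin protein 1 genes, were at 139 to 499, 16.5 to 38.8 and 4.32 to 50.6 TPM. Of the histone H3 lysine 9 methyltransferase genes, Ehmt2, Ehmt1 and Setdb1 were at 45.0 to 181, 11.9 to 55.6 and 2.50 to 27.7 TPM. Suv39h1 and Suv39h2 were lower, at 0.78 to 10.3 and 0 to 9.24 TPM, each above 1 TPM in 8 of 9 cells. Kdm1a, a histone demethylase needed for receptor choice, was at 24.6 to 91.5 TPM. Rif1, a regulator of replication timing, was at 57.7 to 259 TPM. Lbr, which tethers heterochromatin to the nuclear envelope, was at 64.1 to 175 TPM. Of the factors that bind receptor enhancers, Ldb1 was at 59.0 to 222 TPM, Lhx2 exceeded 1 TPM in 4 of 9 cells, Ebf1 in none, and Emx2 was listed at 0 in all 9.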

How the data were processed

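The labels named 26 samples, the RNA and DNA of 13 blastomeres from 2 embryos, and the tables used here held 9 of these cells. In addition, 14 columns in each table belonged to no sample of the series and were not used. For scRR-seq-DNA, the authors aligned reads to mm10 with bwa (BWA 0.7.17-r1188 per the submitters' processing notes), corrected mappability with the G1-like and G2/M-like cells, removed blacklisted regions and called states with AneuFinder. They deposited a replication state score per 40-kb bin (1 replicated, -1 unreplicated, 0 no data), which keeps no read depth. For scRR-seq-RNA, the deposited values were TPM from RSEM on reads reduced to a common number per cell, with GENCODE annotation. The RNA column headers repeat embryo 1 cell 7 throughout, and columns were assigned to cells by their closing library number, which matches 1 RNA title each.

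Percent replicated was the number of bins at 1 divided by the bins with a state, per cell. A family was set against the other bins of the chromosomes it occurs on, within the cell. GC content, CpG and soft-masked repeats came from the RefSeq GRCm38.p6 genome, and promoters (1234 receptor genes matched by symbol) from RefSeq. An array was a run of receptor genes at most 1 Mb apart. Arrays named in the text were those of at least 10 bins with the 4 highest means (5 tied) and the 4 lowest, the one with most bins on chromosomes 2, 7, 9 and 17 and the one holding the globin genes. The chromosome 3 array was added after its values were seen. Named genes were the 5 receptor genes with the highest mean TPM and the listed markers. The comparisons by GC content, repeat content and distance to an array's end were likewise made with values known. Members, lists and measures were chosen with earlier results of these data known. No test was run, since all S-phase cells came from 1 embryo. The code was tested on simulated states with known shares. Analyses used Python 3.11.15, numpy 2.4.6, pandas 2.3.3, scipy 1.17.1 and matplotlib 3.10.9.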

Additional observations from a re-analysis of the deposited data

How the results depend on the processing

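Differences between bin sets were taken within each cell. No paired analysis was possible between the embryos because cell numbers shared by them are only names, and no result came from a test. The difference between receptor and other bins of 3.42 points became 22.8 against other bins with no annotated gene, 14.7 against other bins with no gene at TPM > 1, 11.8 in the same GC range, 8.26 with each chromosome counted once and -9.94 against bins within 2 Mb. For Olfr these values were 22.2, 13.9, 9.71, 10.1 and -10.7. For Vmn1r the first 3 were 36.8, 28.4 and 22.3, and 6.57 within 2 Mb. For Vmn2r they were 17.6, 8.68, 19.7, 8.08 and -15.9, and 10.8 without chromosome 7. Against other bins in the same GC range with a protein-coding gene, an alternative chosen after seeing the data, the differences were -0.89 (receptor), -2.72 (Olfr), 12.1 (Vmn1r) and 3.93 (Vmn2r), and against those with a gene at TPM > 1 they were -7.94, -9.51, 5.66 and -4.87. These ranges run from the 5th to the 95th percentile of the receptor bins, within which other bins lie at higher GC content than receptor bins. Receptor bins replicated in no cell were 2.30% without chromosome 7, and agreement over bins that differ between cells was 57.8%, where a bin with 6 states can give only 40 to 66.7%. Receptor genes detected numbered 483 at TPM > 0 and 27 at TPM > 5. The embryo 1 difference of 2.69 became -0.16 without chromosome 7.

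Leaving out 1 cell at a time gave 2.36 to 4.37 points for receptor, 0.89 to 3.8 for Olfr, 15.98 to 18.4 for Vmn1r and -3.44 to -1.45 for Vmn2r bins. It gave 53.0 to 59.6% replicated in all remaining cells, 5.49 to 7.75% in none, 26 to 28 arrays above their chromosome, 81.2 to 83.7% agreement and 139 to 152 detected genes. For embryo 1 it gave -0.017 to 4.05 points, the lowest without cell 1. The lowest Olfr value was without cell 8 and the Vmn2r value nearest 0 without cell 7. The other 40 settings tried kept differences in direction and within their SD, shares within their binomial interval and counts within a set factor. Among them the Vmn2r value went to -0.60 with protein-coding genes only (higher in 4 of 6 cells), -4.16 by gene midpoints and -4.29 for bins with 6 states (each higher in 0 of 6), and in the 2 cells numbered from 11 to 17 it was -0.54 and the Olfr value 1.04. Arrays above their chromosome numbered 20 to 29 under other gaps and sizes. Neither table keeps read depth, so the certainty of single states and low TPM values is unknown.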
